A study of Mus musculus with 8 samples.

Results

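The genes described here are 35 antioxidant and glutathione genes, picked by name out of the 41388 genes counted in every library. They were followed in macrophages of eWAT (epididymal white adipose tissue, the fat depot beside the epididymis) from 4 male MitoFat mice on normal chow, a strain in which a reporter marks the mitochondria of adipocytes only. From each mouse, live CD45+ F4/80+ CD64+ cells were sorted into mtD2+ macrophages, which carried the reporter and so held mitochondria that came from adipocytes, and mtD2- macrophages, which did not. That gives 4 mtD2+ and 4 mtD2- libraries in 4 pairs. Both groups come from the same MitoFat mice, and neither comes from a strain without the reporter. Neither the age of the mice nor how many cells went into a library is stated in the labels. All 35 genes matched 1 identifier each. Of them, 33 passed the filter on low counts and were tested, and 2, Gstp1 and Txnrd2, did not.

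Cells keep reactive oxygen in check through a few linked systems. Superoxide dismutases turn superoxide into hydrogen peroxide, which catalase, glutathione peroxidases and peroxiredoxins then reduce. Glutathione and thioredoxin supply the electrons and are themselves recycled by glutathione reductase and thioredoxin reductases at the cost of NADPH. The transcription factor NRF2, encoded by Nfe2l2, switches many of these genes on when its inhibitor KEAP1 lets go of it. Macrophages make reactive oxygen on purpose with their NADPH oxidase, and mitochondria release it as a by-product of respiration.

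The 8 libraries held between 18462287 and 27464399 counts on genes, and 13933 genes were tested with edgeR. Of these, 767 (5.50%) were called at an adjusted p under 0.05, 519 (3.72%) higher and 248 (1.78%) lower in mtD2+. With library totals alone as scaling the split was 407 higher and 349 lower. The fibroblast and adipocyte precursor list, cells that should be outside the gate, stood at a summed 252 to 305 normalized CPM in mtD2+ and 825 to 1415 in mtD2-, with 6 of its 14 genes called lower, led by Col1a1 (log2 fold change −2.51, SE 0.19) and Col1a2 (−2.56, SE 0.14). The macrophage list stood at 17893 to 21773 in mtD2+ and 21212 to 24333 in mtD2-, with 1 of 12 genes called higher and 2 lower, and Adgre1 and Fcgr1, which encode the sort markers F4/80 and CD64, averaged 466 and 118 CPM in mtD2+ and 685 and 160 CPM in mtD2-. In the list of genes that respond to tissue dissociation 8 of 20 were called higher. Its sum was 27542 to 32899 in mtD2+ and 15401 to 31730 in mtD2-, where the library of mouse 4 was the highest. Normalized CPM, the unit of every level below unless RPKM is named, are counts scaled to the library size with TMM factors.

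Txnrd1, the cytosolic thioredoxin reductase, was called higher in mtD2+ macrophages and no other of the 33 tested genes was called. That is 1 of 33 higher, where 3.72% of all tested genes were called higher, and 0 of 33 lower, where 1.78% were. At an unadjusted p under 0.05 edgeR gave 3 of the 33 higher and 11 lower, where 11.8% of all tested genes were higher and 11.0% lower. After adjustment the DESeq2 Wald test called 2 of the 33 higher and 2 lower, where it called 8.15% of all tested genes higher and 4.89% lower. With limma voom 2 were higher and 0 lower, where 4.98% of all tested genes were higher and 2.67% lower. The called members are thus few and, after adjustment, their counts lie near the shares over all genes. The 11 lower at an unadjusted p under 0.05 lie above the share of 11.0%. Most of the small differences had the same sign. Of the 33 log2 fold changes 25 were negative and 8 positive, with a median of −0.28, while the median over all tested genes was 0 on the same scale. In mtD2+, 12 of the 33 genes were lower in all 4 mice, a larger share than the 16.0% of all tested genes. Any gap counted, however small, so the 12 include Glrx, which was about level in mouse 3 (log2 ratio 0.00). Higher in all 4 mice were 3 genes, beside 16.3% of all tested genes. All mtD2+ libraries lay below all mtD2- libraries for 3 genes (6.01% of all tested genes), and all lay above for 0 genes (6.55%).

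**Figure D1:**
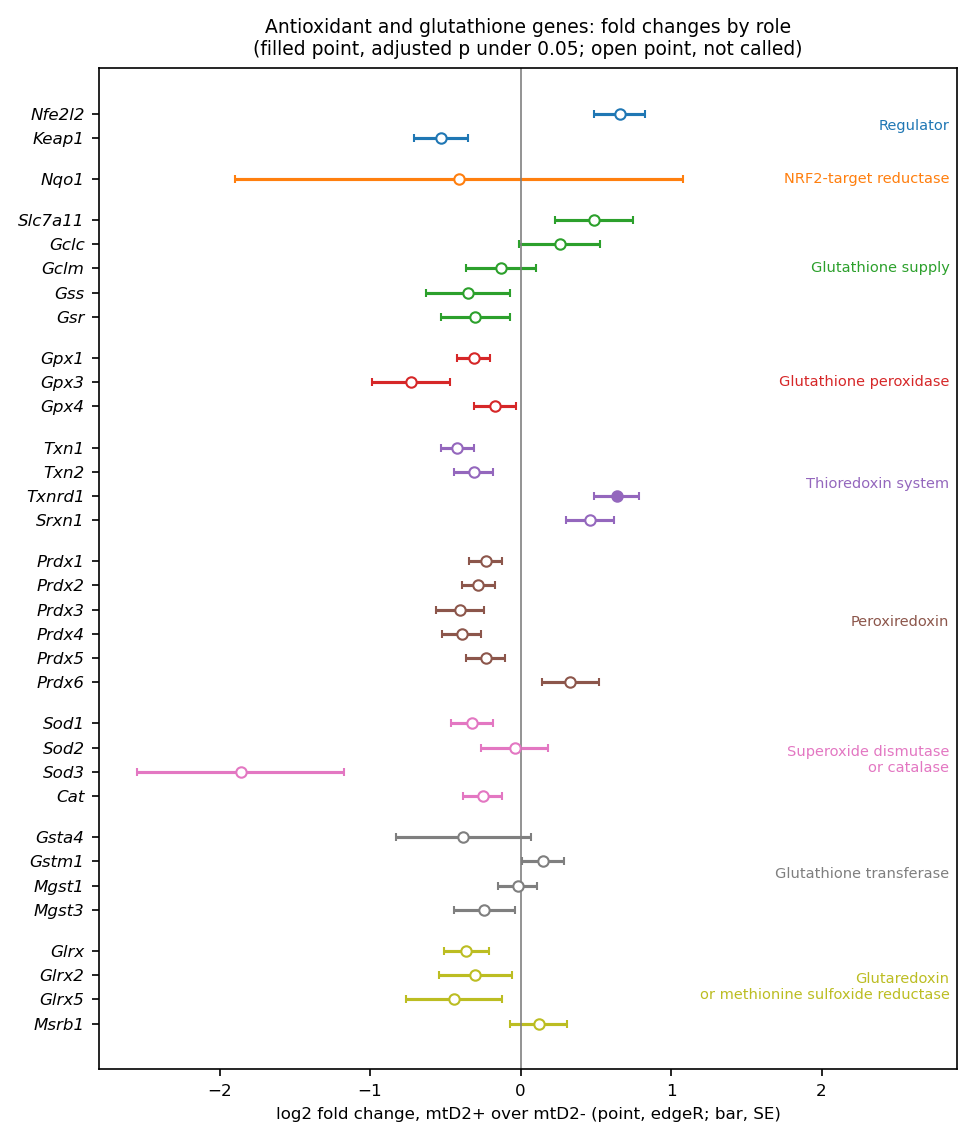
Log2 fold changes of mtD2+ over mtD2- (horizontal axis) for the 33 tested antioxidant and glutathione genes, grouped by role, with the SE as a bar and a filled point where the adjusted p was under 0.05. Txnrd1 at 0.64 is the filled point, and 25 of the 33 points lie left of 0.

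The libraries did not share this pattern evenly. Within mouse 1, 23 of the 33 genes were lower in mtD2+, and 17, 25 and 25 were lower within mice 2, 3 and 4. The median log2 ratio of the 33 genes was −0.16, −0.02, −0.20 and −0.35 in mice 1 to 4. For 19 of the 33 genes (57.6%) the highest mtD2- value came from mouse 4, against 31.1% of all tested genes. In mtD2+ the highest value came from mouse 2 for 17 of the 33 genes (51.5%, against 24.3% of all tested genes) and from mouse 3 for 2 of them (6.06%, against 29.3%). Without mouse 4 the median was −0.19, with 22 genes negative and 11 positive. The part of single libraries in the pattern was not tested beyond this.

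**Figure D2:**
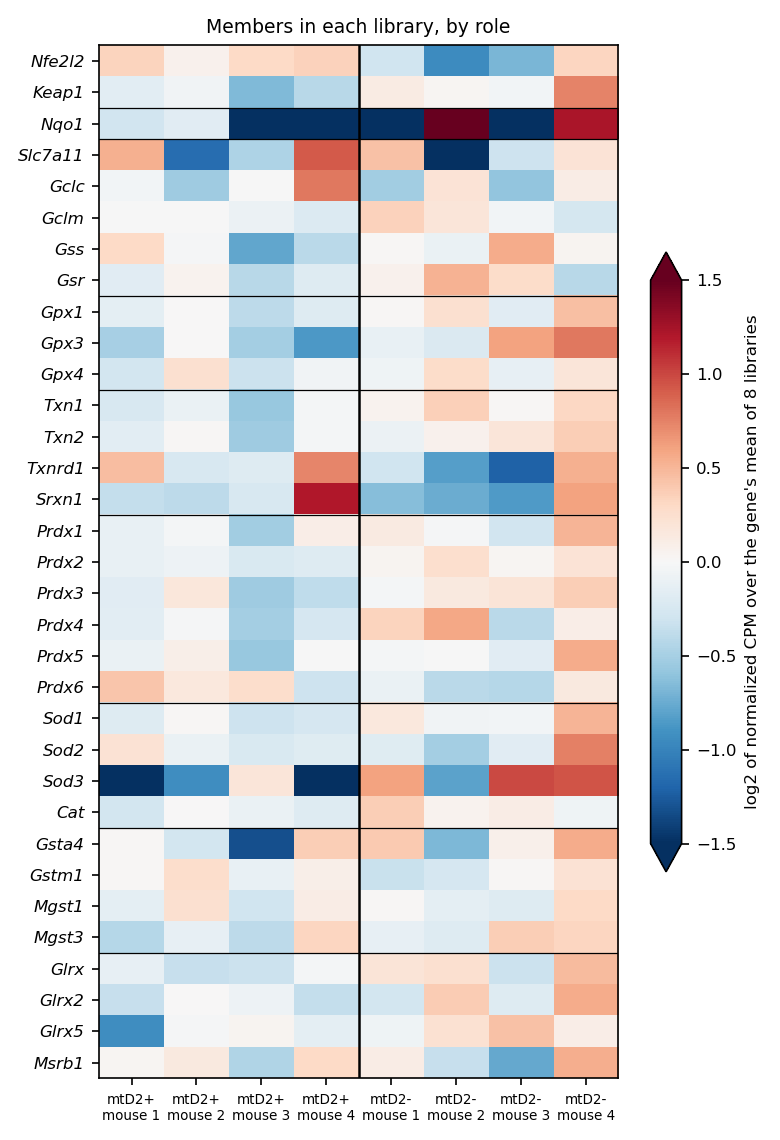
Level of each tested gene in each library as the log2 of its normalized CPM over its own mean of 8 libraries, with mtD2+ libraries left of the line and mtD2- libraries right of it, and rows grouped by role. The mtD2- library of mouse 4 is the reddest column of its group, and Txnrd1 and Nfe2l2 run against most other rows in mice 1 to 3.

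The thioredoxin system held genes of both signs. Txnrd1 (chromosome 10, 82859206 to 82897724 on GRCm38) stood at 94.5, 58.2, 60.3 and 114 CPM in mtD2+ of mice 1 to 4, against 55.8, 38.7, 29.7 and 99.3 CPM in mtD2-. It was higher in mtD2+ within every mouse, least in mouse 4. That mouse was high in both populations, and its mtD2- library alone made the groups overlap. The fold change was 1.56 (log2 0.64, SE 0.15, adjusted p = 0.0422). The call was lost without the mouse block (log2 0.55, adjusted p = 0.430) and without mouse 1, 2 or 3 (0.60, 0.66 and 0.52, adjusted p = 0.168, 0.109 and 0.166), and it held without mouse 4 (0.79). Over all alternatives its adjusted p ran from 0.00144 to 0.430. Txnrd1 overlaps Eid3 on the same strand. Srxn1, which encodes sulfiredoxin, the enzyme that rescues overoxidized peroxiredoxins, had 16.9, 16.5, 18.3 and 49.7 CPM in mtD2+ and 13.9, 12.9, 12.0 and 32.9 CPM in mtD2-. Mouse 4 was high in both populations. Its ratio pointed up in all 4 mice, yet it did not pass the test (log2 0.46, SE 0.16, adjusted p = 0.135).

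Thioredoxin itself, the cytosolic substrate of Txnrd1, had the opposite sign. Txn1 had 62.1, 68.1, 49.4 and 71.7 CPM in mtD2+ and 75.6, 93.4, 73.9 and 91.1 CPM in mtD2-. Every mtD2+ library lay below every mtD2- library (log2 −0.42, SE 0.11, adjusted p = 0.0677). DESeq2 called it lower (−0.40, adjusted p = 0.0327), and over all alternatives the adjusted p ran from 0.0327 to 0.241. Txn2, the mitochondrial thioredoxin, had 175, 198, 135 and 192 CPM in mtD2+ and 183, 205, 222 and 252 CPM in mtD2-, lower within every mouse but not past the test (log2 −0.31, SE 0.13, adjusted p = 0.219). Txnrd2, the mitochondrial reductase, had at most 2 counts in any library and 6 in all 8, and was not tested. Its span overlaps another gene on the other strand.

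**Figure D3:**
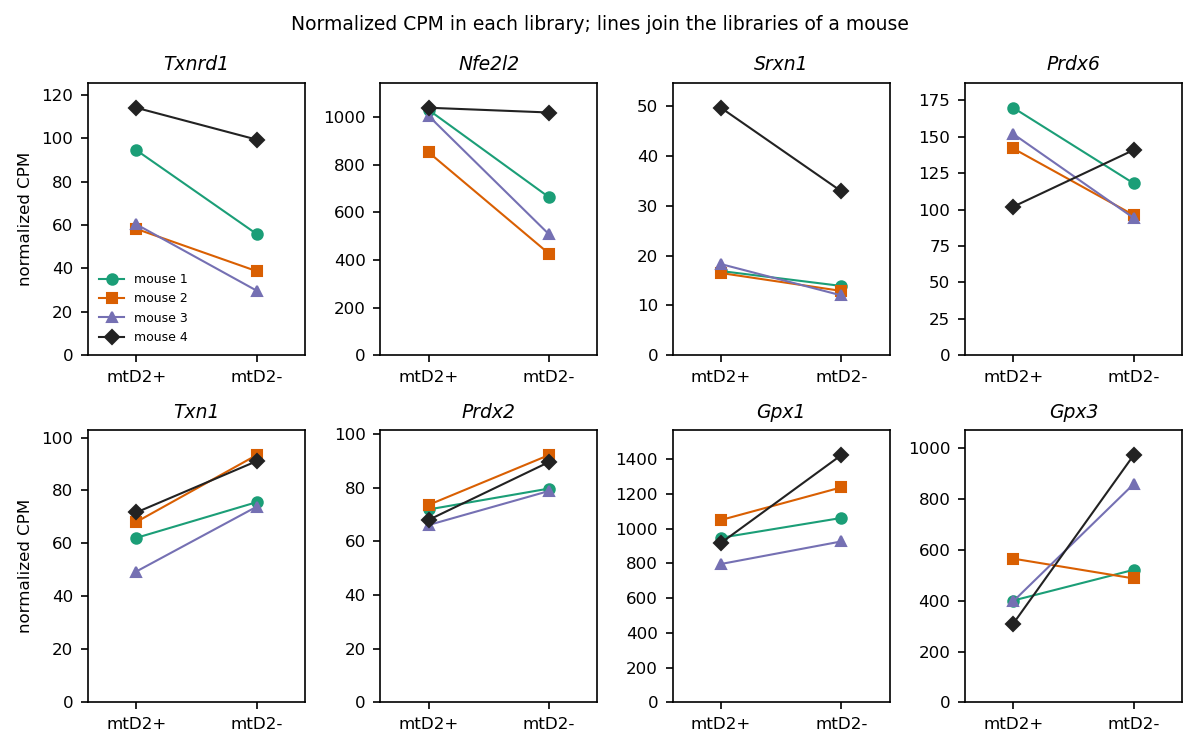
Normalized CPM (vertical axis, from 0) of 8 genes in mtD2+ and mtD2- macrophages, with a line for each mouse. Txnrd1, Nfe2l2 and Srxn1 slope down to mtD2- in every mouse, while Txn1, Prdx2 and Gpx1 slope up in every mouse.

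The promoters of the 4 genes with the smallest unadjusted p, Txnrd1, Nfe2l2, Txn1 and Prdx4, are shown so that they can be read for the antioxidant response element, the site NRF2 binds together with a small Maf protein. Srxn1 was added after its values were seen. Each run is 300 bases of the RefSeq promoter table on GRCm38.p6, 5′ to 3′ on the gene's own strand, 250 bases before and 50 after the start that RefSeq gives. Capitals mark the core TGACNNNGC, searched on both strands.
Txnrd1: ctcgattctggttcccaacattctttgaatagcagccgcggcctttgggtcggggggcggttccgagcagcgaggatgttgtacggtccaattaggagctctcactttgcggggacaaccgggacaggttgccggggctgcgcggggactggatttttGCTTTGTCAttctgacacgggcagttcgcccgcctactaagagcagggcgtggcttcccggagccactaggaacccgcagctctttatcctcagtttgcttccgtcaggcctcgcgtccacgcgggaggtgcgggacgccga
Nfe2l2: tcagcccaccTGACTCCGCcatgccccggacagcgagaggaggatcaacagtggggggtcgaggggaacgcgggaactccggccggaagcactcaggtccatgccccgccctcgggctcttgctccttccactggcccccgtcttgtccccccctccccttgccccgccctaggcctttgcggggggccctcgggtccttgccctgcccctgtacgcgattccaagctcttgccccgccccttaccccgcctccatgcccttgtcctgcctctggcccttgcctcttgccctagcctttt
Srxn1: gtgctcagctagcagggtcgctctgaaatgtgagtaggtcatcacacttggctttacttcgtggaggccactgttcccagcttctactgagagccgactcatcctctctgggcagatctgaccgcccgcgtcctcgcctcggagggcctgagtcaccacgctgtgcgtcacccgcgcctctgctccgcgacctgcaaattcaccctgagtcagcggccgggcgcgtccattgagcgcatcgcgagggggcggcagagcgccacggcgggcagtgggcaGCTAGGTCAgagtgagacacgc
Txn1: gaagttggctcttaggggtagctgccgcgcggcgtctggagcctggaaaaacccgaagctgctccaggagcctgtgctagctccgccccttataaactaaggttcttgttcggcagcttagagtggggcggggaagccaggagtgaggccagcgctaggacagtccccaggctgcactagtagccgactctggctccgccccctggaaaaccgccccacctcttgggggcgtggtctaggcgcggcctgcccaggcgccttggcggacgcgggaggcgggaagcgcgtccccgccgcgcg
Prdx4: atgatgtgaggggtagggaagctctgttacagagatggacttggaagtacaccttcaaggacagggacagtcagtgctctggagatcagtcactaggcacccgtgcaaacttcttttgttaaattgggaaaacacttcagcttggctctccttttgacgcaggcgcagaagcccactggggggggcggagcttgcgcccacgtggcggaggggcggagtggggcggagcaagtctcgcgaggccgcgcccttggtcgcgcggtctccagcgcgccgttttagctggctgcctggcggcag
The Txnrd1 window is chr10:82858956-82859255 on the plus strand, 1 of 3 in the table and the only 1 of them with the core. The Nfe2l2 start in RefSeq lies upstream of the GENCODE one, and the last 28 bases of its window are in the GENCODE transcript, sense strand, where each other window printed has 50 or more. Nfe2l2 lies at chr2:75704614-75704913 on the minus strand and Srxn1 at chr2:152105274-152105573 on the plus strand. Txn1 is chr4:57956362-57956661 and Prdx4 is chrX:155338411-155338710, both on the minus strand, and neither window holds the core. The table had 30 of the 35 genes, and 7 of these 30 (23.3%) had the core in at least 1 window, namely Nfe2l2, Srxn1, Gclm, Prdx1, Mgst1, Txnrd1 and Sod1, against 14.0% of all 27025 genes in the table. In Prdx1 the match includes TGACTCA, a site of the AP-1 factors that overlaps the element, and the Srxn1 window holds TGACTCA elsewhere, as 5.2% of all windows do. The Srxn1 window also reads TGAGTCAGC, which differs from the core in 1 letter and was neither marked nor counted. The match marked in Srxn1, bases 279 to 287 of the window, lies after the start. A match in letters is a description and does not show that a factor binds there.

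Of the pair of regulators, Nfe2l2 and its inhibitor Keap1 had opposite signs, and neither was called. Nfe2l2 (chromosome 2, 75675513 to 75704641) had 1030, 852, 1005 and 1039 CPM in mtD2+, against 663, 426, 507 and 1019 CPM in mtD2-. The 4 mtD2+ libraries lay close together, 3 mtD2- libraries lay far below them, and the mtD2- library of mouse 4 lay among them. The log2 fold change was 0.66 (SE 0.17, adjusted p = 0.0533), or 0.87 without mouse 4 (adjusted p = 0.00683). Both DESeq2 (0.68, adjusted p = 0.000194) and limma voom (0.66, adjusted p = 0.0217) called it higher, and over all alternatives the adjusted p ran from 0.000194 to 0.229. Keap1 had 39.1, 42.3, 27.7 and 32.7 CPM in mtD2+ and 47.7, 44.5, 42.6 and 73.1 CPM in mtD2-, with no overlap of the groups. That was a log2 difference of −0.53 (SE 0.18, adjusted p = 0.131), and −0.33 without mouse 4. The Keap1 span overlaps an antisense gene, Gm16754, and the labels do not say whether reads were counted by strand.

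Nqo1, the quinone reductase used as a standard readout of NRF2, was close to the limit of detection. It had 0.821, 0.891, 0.31 and 0.113 CPM in mtD2+ and 0.077, 3.37, 0.0841 and 2.35 CPM in mtD2-, or 2 to 89 counts a library. The libraries of each group differed by more than the groups did (log2 −0.41, SE 1.49, adjusted p = 0.900).

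Beyond the 35 genes, 63 others of the NRF2 and glutathione pathway were counted, and 62 were tested. Of these 62, edgeR called 3 higher and 0 lower (median −0.17), beside 3.72% and 1.78% of all tested genes. At an unadjusted p under 0.05 edgeR gave 9 higher and 13 lower, beside 11.8% and 11.0% of all tested genes. DESeq2 called 6 higher and 3 lower, beside 8.15% and 4.89%, and limma voom 3 higher and 1 lower, beside 4.98% and 2.67%. These counts lie near the background, the 13 lower ones above it. The 3 that edgeR called were Hmox1 and the small Maf genes Mafg and Mafk. Hmox1, the heme oxygenase that NRF2 induces and BACH1 represses, had 1260, 1566, 1080 and 2325 CPM in mtD2+ and 876, 830, 658 and 1853 CPM in mtD2-. It was higher within every mouse (log2 0.62, SE 0.12, adjusted p = 0.0232), with mouse 4 high in both populations. Small Maf proteins are the DNA-binding partners of both NRF2 and BACH1. Mafg had 164, 138, 181 and 252 CPM in mtD2+ and 95.2, 80.2, 98.9 and 139 CPM in mtD2- (log2 0.83, SE 0.10, adjusted p = 0.00404), and it was called whichever mouse was left out. Mafk had 178, 169, 135 and 198 CPM in mtD2+ and 71.5, 62.3, 42.3 and 164 CPM in mtD2- (log2 1.18, SE 0.21, adjusted p = 0.0169). Again mouse 4 had the smallest gap.

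None of the 3 was called without the mouse block (adjusted p = 0.390 for Hmox1, 0.0720 for Mafg and 0.156 for Mafk). Hmox1 and Mafk each lost the call without mouse 1, 2 or 3, with log2 fold changes of 0.52 to 0.65 for Hmox1 and 1.02 to 1.13 for Mafk. Over all alternatives the adjusted p ran from 5.09e-06 to 0.390 for Hmox1, from 9.19e-11 to 0.0720 for Mafg and from 3.56e-08 to 0.156 for Mafk. Next by unadjusted p were Esd, Msra and Park7, which had negative values and did not pass edgeR's test, while DESeq2 called all 3 lower. Esd, which encodes S-formylglutathione hydrolase, stood at −0.46 (adjusted p = 0.0645). Msra, a methionine sulfoxide reductase, stood at −0.84 (adjusted p = 0.0708), and Park7, the redox sensor DJ-1, at −0.39 (adjusted p = 0.0786). Beyond edgeR's calls, DESeq2 called Bach1 (log2 0.39, adjusted p = 0.0279), Maff (0.58, adjusted p = 0.0301) and Slc3a2 (0.46, adjusted p = 0.0335) higher. The summed level of dissociation-responsive genes had log2 ratios of 0.61, 0.88, 0.69 and 0.05 in mice 1 to 4. Nfe2l2, Txnrd1, Hmox1 and Mafk also had their smallest ratio in mouse 4. Mafg did not, with 0.78, 0.78, 0.88 and 0.86 in mice 1 to 4. The part of dissociation-responsive genes in these differences was not tested.

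In glutathione supply 0 of 5 genes were called by edgeR, DESeq2 or limma voom. In edgeR 0 had an unadjusted p under 0.05, beside 11.8% of all tested genes higher and 11.0% lower. Slc7a11, the cystine importer, ranged widely within each group, with 30, 9.42, 15.1 and 39.3 CPM in mtD2+ and 28.2, 3.63, 16.8 and 23.9 CPM in mtD2- (log2 0.49, SE 0.26, adjusted p = 0.300). Mouse 2 was low in both populations. Gclc, the catalytic subunit of the rate-limiting ligase, had 15.2, 10.8, 15.6 and 27.1 CPM in mtD2+ and 10.9, 18.0, 10.4 and 16.9 CPM in mtD2- (0.26, SE 0.27). Its regulatory subunit Gclm lay between 7.98 and 9.17 CPM in mtD2+ and between 7.64 and 11.7 CPM in mtD2- (−0.13, SE 0.23). Gss, which completes glutathione, and Gsr, which recycles it, stood at −0.35 (SE 0.28) and −0.30 (SE 0.23). For all 5 genes the groups overlapped and the adjusted p was 0.300 or above. Gss overlaps Acss2 and Gclm overlaps Gm17494 on the other strand.

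All 3 glutathione peroxidases had negative fold changes, and 0 were called by edgeR, DESeq2 or limma voom. At an unadjusted p under 0.05 edgeR gave 2 lower, beside 11.0% of all tested genes. Gpx1, the main cytosolic enzyme, which mitochondria also contain, had 947, 1049, 796 and 917 CPM in mtD2+, against 1061, 1237, 926 and 1423 CPM in mtD2-. It was lower within every mouse with overlapping groups (log2 −0.31, SE 0.11, adjusted p = 0.148). Gpx3, the secreted plasma form, had 401, 566, 398 and 310 CPM in mtD2+ and 522, 488, 860 and 974 CPM in mtD2-. It was lower in mice 1, 3 and 4 and higher in mouse 2 (log2 −0.73, SE 0.26, adjusted p = 0.143). Without mouse 4 its difference was −0.42. Gpx4, which protects membrane lipids and whose loss leads to ferroptosis, differed least, with 22.3, 31.9, 21.6 and 26.0 CPM in mtD2+ and 25.7, 32.6, 24.8 and 30.5 CPM in mtD2- (−0.17, SE 0.14, adjusted p = 0.536).

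Adipocytes and stromal cells of fat also make Gpx3, so their markers are given beside it. The adipocyte list stood at a summed 481 to 962 CPM in mtD2+ and 581 to 1204 CPM in mtD2-, with 0 of 12 genes called and the highest sum in the mtD2- library of mouse 4. By other tools DESeq2 called 3 of the 12 higher and limma voom 0, beside 8.15% and 4.98% of all tested genes. At an unadjusted p under 0.05 edgeR gave 3 higher and 0 lower, beside 11.8% and 11.0%. Adipoq averaged 11.5 ± 4.27 CPM in mtD2+ and 8.05 ± 2.27 CPM in mtD2- (SD, n = 4 each), and Plin1 stood below 1 CPM in the mean of either group. The log2 ratio of the fibroblast sum was −1.59, −1.70, −1.71 and −2.41 in mice 1 to 4, also lowest in mouse 4, where Gpx3 differed most. In mouse 2, at −1.70 for the fibroblast sum, Gpx3 was higher in mtD2+ (log2 ratio 0.22). The part of these cells in the Gpx3 difference was not tested. In bulk libraries fewer cells of a type and less RNA per cell cannot be told apart.

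Of the 6 peroxiredoxins, 5 had negative fold changes and Prdx6 a positive one, and none was called. Over the 6, DESeq2 and limma voom called 0 as well. At an unadjusted p under 0.05 edgeR gave 0 higher and 3 lower, beside 11.8% and 11.0% of all tested genes. Prdx2, a cytosolic enzyme that is very abundant in red blood cells, had 71.9, 73.6, 66.1 and 68.0 CPM in mtD2+ and 79.7, 92.2, 78.8 and 89.6 CPM in mtD2-. The groups did not overlap, but the difference was small (log2 −0.28, SE 0.11, adjusted p = 0.167). The red blood cell list summed to 33.8 to 203 CPM in mtD2+ and 64.7 to 515 CPM in mtD2-, with log2 ratios of −1.34, −0.80, 0.23 and −0.94 in mice 1 to 4. Of its 5 tested genes 4 had negative values, and edgeR called 0. At an unadjusted p under 0.05 edgeR gave 4 lower, beside 11.0% of all tested genes. DESeq2 called 4 lower and limma voom 1, beside 4.89% and 2.67%. Hba-a1 averaged 32.8 ± 17.2 CPM in mtD2+ and 53.6 ± 36.3 CPM in mtD2-. Prdx2 also overlaps Junb, an immediate early gene on the other strand, which had 718, 531, 758 and 403 CPM in mtD2+ and 386, 325, 421 and 885 CPM in mtD2-. The part of either in the Prdx2 counts was not tested.

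Prdx3, the peroxiredoxin of the mitochondrial matrix, had 57.3, 72.3, 44.3 and 49.5 CPM in mtD2+ and 62.8, 71.4, 73.5 and 83.2 CPM in mtD2-. It was clearly lower in mice 3 and 4 and about level in mouse 2 (log2 −0.40, SE 0.16, adjusted p = 0.185). Prdx4, which works in the endoplasmic reticulum, had 45.2, 49.7, 35.2 and 42.2 CPM in mtD2+ and 63.2, 75.0, 38.1 and 53.8 CPM in mtD2- and was lower within every mouse (log2 −0.39, SE 0.13, adjusted p = 0.119). Prdx1, the abundant cytosolic form, stood at −0.23 (SE 0.11), lower within every mouse. Prdx5, found in mitochondria, peroxisomes and the cytosol, stood at −0.23 (SE 0.13), lower in 3 of 4 mice. Prdx6, the only member of the family that reduces phospholipid peroxides with glutathione, had 170, 142, 152 and 102 CPM in mtD2+ and 118, 96.2, 94.2 and 141 CPM in mtD2-. It was higher in mice 1 to 3 and lower in mouse 4 (log2 0.33, SE 0.19, adjusted p = 0.327). Without mouse 4 edgeR called it higher (0.59, adjusted p = 0.0278), the lowest of a range up to 0.653 over the alternatives.

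Each of the 3 superoxide dismutases and catalase had a negative fold change, and edgeR and limma voom called 0 of these 4 genes. DESeq2 called 1 lower, beside 4.89% of all tested genes. At an unadjusted p under 0.05 edgeR gave 2 lower, beside 11.0%. Sod1, the copper-zinc enzyme of the cytosol and the space between the mitochondrial membranes, had 159, 183, 146 and 153 CPM in mtD2+ and 202, 175, 176 and 258 CPM in mtD2- (log2 −0.32, SE 0.14, adjusted p = 0.211). Sod2, the manganese enzyme of the mitochondrial matrix that inflammatory signals induce, had 82.8, 66.2, 60.8 and 62.5 CPM in mtD2+ and 62.5, 50, 63.3 and 120 CPM in mtD2-. It was higher in mice 1 and 2, level in mouse 3 and far lower in mouse 4. Its fold change was −0.04 (SE 0.22), and 0.25 without mouse 4. Cat, the peroxisomal catalase, had 114, 139, 129 and 121 CPM in mtD2+ and 179, 144, 149 and 132 CPM in mtD2-, lower within every mouse (log2 −0.25, SE 0.13, adjusted p = 0.272).

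Sod3, the extracellular enzyme, had the largest fold change of the 33 genes at a low level. It had 2.51, 4.60, 9.97 and 0.509 CPM in mtD2+ and 13.3, 5.03, 17.4 and 16.8 CPM in mtD2-. It was lower in all 4 mice, by log2 −0.13 in mouse 2 and −5.05 in mouse 4 (log2 −1.86, SE 0.69, adjusted p = 0.153). DESeq2 called it lower (−1.90, adjusted p = 0.00475), and over all alternatives the adjusted p ran from 0.00475 to 0.369. Leaving out mouse 4 gave −1.09 and leaving out mouse 2 gave −2.51. Stromal cells also make Sod3, and the fibroblast sum was lower in mtD2+ within all 4 mice, by log2 −1.70 in mouse 2 and −2.41 in mouse 4. Their part in this was not tested.

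Among the glutathione transferases, which attach glutathione to electrophiles, 0 of 4 tested genes were called by edgeR, DESeq2 or limma voom. In edgeR 0 had an unadjusted p under 0.05, beside 11.8% of all tested genes higher and 11.0% lower. Gstm1, the cytosolic mu-class enzyme, had 98.1, 117, 89.9 and 103 CPM in mtD2+ and 77.1, 81.4, 98.4 and 113 CPM in mtD2-. It was higher in mice 1 and 2 and slightly lower in mice 3 and 4 (log2 0.15, SE 0.14). Mgst1, a membrane enzyme, was level in the fit (−0.02, SE 0.13), with 69.4 to 101 CPM in mtD2+ and 75.1 to 105 CPM in mtD2-. Mgst3, another membrane enzyme, stood at −0.24 (SE 0.20), and Gsta4, which clears the lipid peroxidation product 4-hydroxynonenal, at −0.38 (SE 0.45) with at most 4.69 CPM in any library. Gstp1 had 0 counts in all 8 libraries. Its near-identical neighbour Gstp2 also had 0 counts in all 8. The labels do not say how reads that match both were counted, and the level of Gstp1 is not known from these counts.

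The glutaredoxins, which use glutathione to repair oxidized protein thiols, all had negative values, with 0 called by edgeR, DESeq2 or limma voom. At an unadjusted p under 0.05 edgeR gave 1 lower, beside 11.0% of all tested genes. Glrx, the cytosolic form, had 35.3, 30.3, 30.7 and 37.8 CPM in mtD2+ and 44.2, 45.6, 30.7 and 53.5 CPM in mtD2-. The groups overlapped through mouse 3 alone, whose libraries were level (log2 −0.36, SE 0.15, adjusted p = 0.192). Glrx2, mainly mitochondrial, and Glrx5, which helps build iron-sulfur clusters in mitochondria, stood at −0.30 (SE 0.24) and −0.44 (SE 0.32), with adjusted p = 0.487 and 0.468. Msrb1, a selenoprotein that reverses methionine oxidation, stood at 0.12 (SE 0.19) with 15.1 to 25.3 CPM in mtD2+ and 12.1 to 30.2 CPM in mtD2-.

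Members were then set apart by where their proteins work, from textbook knowledge. Of 15 cytosolic genes 14 were tested, and 6 of these had positive and 8 negative fold changes (median −0.18). Of 6 mitochondrial genes 5 were tested, and all 5 were negative (median −0.31). The 6 genes whose proteins work in both places were also all negative (median −0.31). Of all 33 tested members 25 were negative, and of all tested genes 50.1%. The summed level of the cytosolic genes was 913, 880, 737 and 951 CPM in mtD2+, against 879, 844, 745 and 1164 CPM in mtD2-. That is a log2 ratio of 0.05, 0.06, −0.02 and −0.29 in mice 1 to 4, with a mean of −0.05 ± 0.17 (SD, n = 4). The mitochondrial sum was 328, 355, 257 and 318 CPM in mtD2+, against 324, 350, 377 and 480 CPM in mtD2-. Its ratios were 0.02, 0.02, −0.55 and −0.59, with a mean of −0.28 ± 0.34.

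The mitochondrial sum thus differed in mice 3 and 4 and not in mice 1 and 2. Within each mouse the mitochondrial ratio lay below the cytosolic one, by −0.04, −0.04, −0.53 and −0.30 on the log2 scale. The mean gap was −0.23, with an SD over the mice of 0.24. Whether the compartments differed was not tested. Txn2 made up more than any other gene of the mitochondrial sum in each library. The genes of both compartments summed to 1338, 1503, 1116 and 1320 CPM in mtD2+ and to 1512, 1673, 1331 and 2033 CPM in mtD2-, lower within every mouse (mean log2 ratio −0.30 ± 0.22). Gpx1 led that sum. The remaining 8 genes, of the nucleus, peroxisome, endoplasmic reticulum, other membranes or the outside of the cell, averaged a log2 ratio of 0.03 ± 0.41.

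**Figure D4:**
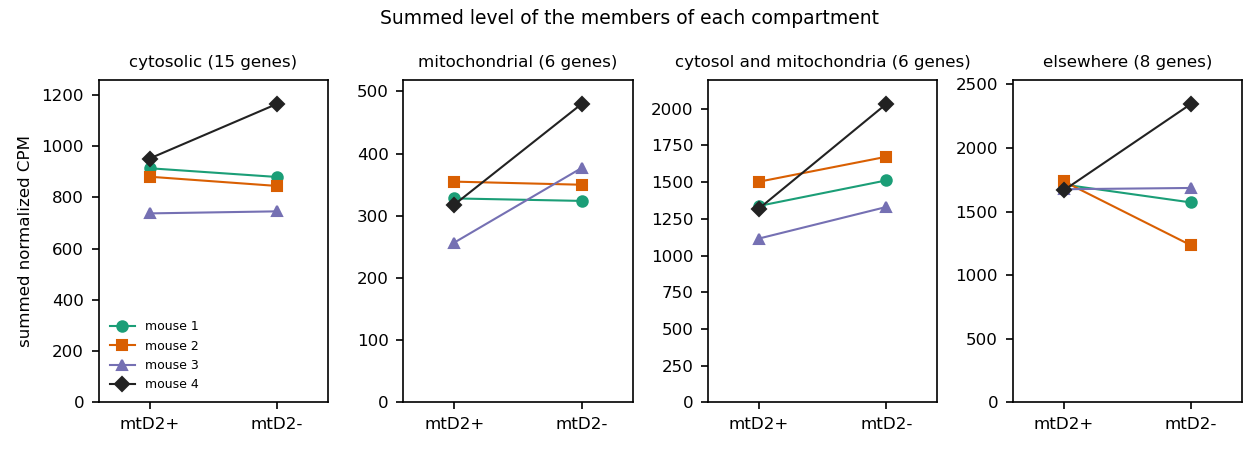
Summed normalized CPM (vertical axis, from 0) of the genes of each compartment in mtD2+ and mtD2- macrophages, with a line for each mouse. The mitochondrial sum is level in mice 1 and 2 and higher in mtD2- in mice 3 and 4, and the mtD2- library of mouse 4 is the highest point of every panel.

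Levels of different genes were compared per length, in the authors' deposited RPKM. Gpx1 was the highest of the 35 in both populations, with 872 ± 94.7 RPKM in mtD2+ and 1131 ± 162 RPKM in mtD2- (SD, n = 4 each). Next in mtD2+ came Nfe2l2 at 253 ± 22.0, Sod1 at 243 ± 24.5 and Gpx3 at 227 ± 59.2 RPKM, which were not apart beyond their spread. In mtD2- the order was Gpx3 at 396 ± 120, Sod1 at 317 ± 36.8 and Nfe2l2 at 172 ± 55.6 RPKM. Prdx5 and Prdx1 followed in both populations, at 87.7 ± 15.5 and 82.1 ± 13.1 RPKM in mtD2+ and 107 ± 17.6 and 100 ± 16.5 RPKM in mtD2-. Glutathione synthesis genes were low, with Gclc at 4.90 ± 1.90 RPKM in mtD2+ and 4.17 ± 1.16 RPKM in mtD2-. Thioredoxin exceeded its reductase in both populations, with Txn1 at 58.4 ± 8.30 and Txnrd1 at 23.3 ± 7.42 RPKM in mtD2+, and with 80.9 ± 9.91 and 16.2 ± 7.68 RPKM in mtD2-.

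**Figure D5:**
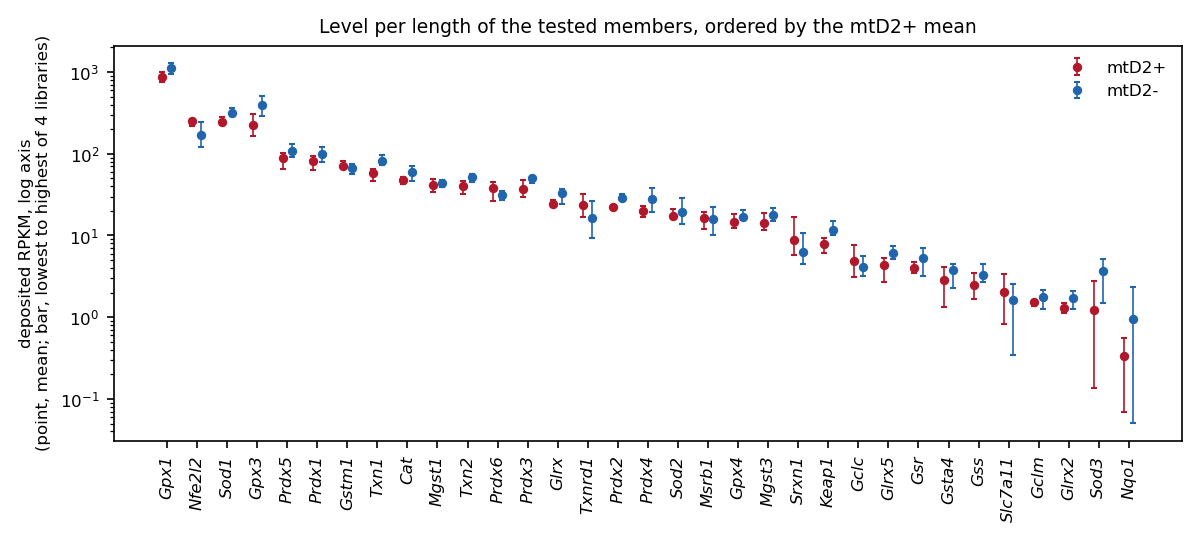
Deposited RPKM (log axis) of the 33 tested genes in mtD2+ and mtD2- macrophages, as the mean of 4 libraries with a bar from the lowest to the highest, ordered by the mtD2+ mean. Gpx1 leads in both populations, and Sod3 and Nqo1 at the low end have the widest bars.

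The enzymes that make reactive oxygen and nitrogen species are the other side of this balance. Of 16 such genes 13 were tested (median 0.11). Of these 13, edgeR called 1 higher and 1 lower, beside 3.72% and 1.78% of all tested genes. At an unadjusted p under 0.05 it gave 3 higher and 2 lower, beside 11.8% and 11.0%. DESeq2 called 2 higher and 1 lower, beside 8.15% and 4.89%, and limma voom 1 and 1, beside 4.98% and 2.67%. Cyba, the p22-phox subunit of the phagocyte NADPH oxidase, had 492, 556, 345 and 563 CPM in mtD2+ and 648, 664, 495 and 842 CPM in mtD2-. It was lower within every mouse (log2 −0.44, SE 0.10, adjusted p = 0.0471). The call was lost without the block (adjusted p = 0.278), with DESeq2 size factors in edgeR (adjusted p = 0.0517) and without any 1 of the 4 mice, with log2 fold changes of −0.50 to −0.39. Over all alternatives the adjusted p ran from 0.0018 to 0.278. Cybb, the catalytic subunit of the same oxidase, and Rac2, the GTPase that switches it on, stood at −0.24 (adjusted p = 0.224) and −0.28 (adjusted p = 0.179). Xdh, xanthine oxidoreductase, had 260, 291, 297 and 251 CPM in mtD2+ and 229, 181, 249 and 215 CPM in mtD2-, without overlap (log2 0.33, adjusted p = 0.138). Mpo, myeloperoxidase of neutrophils, stood at 2.28 CPM or below in every library and at 0 in both libraries of mouse 3.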

How the data were processed

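Sorted eWAT macrophages gave 8 libraries, amplified with a SMARTer Ultra-Low kit per the labels' protocols. The submitters' processing notes name bcl2fastq, STAR 2.0.4b and featureCounts 1.45 of Subread, and GRCm38. Options and strandedness are unstated. The authors deposited raw counts, 18462287 to 27464399 per library, with CPM (scaled to that total) and RPKM (CPM per kilobase of gene), and both were recomputed from the counts. Deposited CPM was not used further. GENCODE M21 gave 40340 identifiers a symbol and left 1048 without.

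The edgeR 4.0.16 quasi-likelihood F test (R 4.3.3) used TMM factors, the expression filter (minimum count 10, minimum total 15), the mouse as a block and Benjamini-Hochberg adjustment over 13933 genes. Each SE comes from the log2 fold change and its F statistic. The block comes from the labels, which give each library a mouse ID. Deviations of the 2 libraries of a mouse correlated at 0.0385, 0.0704, 0.145 and 0.251 in mice 1 to 4, and at up to 0.0582, 0.0246, 0.0139 and −0.01 with those of another mouse, so that the data alone do not show the pairing of mouse 1. In simulated counts of this comparison over 13933 genes, recovery was 16.3% for 1.5-fold changes, 44.9% for 2-fold, 69.4% for 3-fold and 72.3% for 4-fold. At each fold 47 to 49 changed genes, drawn at random over all levels, were tested.

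Members and lists were chosen with earlier results of these data known, and no list was tested as a set. All listed genes are reported. In the 2 other pathway lists, called genes and those of smallest unadjusted p up to 6 are named, and in marker lists the first 2 and the sum. Bach1, Maff and Slc3a2 are named for their DESeq2 calls. The gene called higher in the reactive oxygen list is not reported here. Alternatives were no block, DESeq2 size factors, library totals, no filter, a minimum count of 30, the DESeq2 1.42.0 Wald test, limma 3.58.1 voom, thinned counts and each mouse left out.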

Additional observations from a re-analysis of the deposited data

Results flagged for a closer look

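In groups of 4 libraries, a library was singled out where its gap to the nearest other, as a share of the group's range, exceeded Dixon's critical value, which chance gives in about 1 group in 20. Of 70 groups, covering the 33 tested genes and both compartment sums, 3 had such a library, all 3 from mouse 4. Srxn1 stood at 49.7 CPM in the mtD2+ library of mouse 4, against 16.5 to 18.3 in the other mtD2+ libraries. In mtD2- it stood at 32.9 CPM in mouse 4, against 12.0 to 13.9 in the others. Keap1 stood at 73.1 CPM in the mtD2- library of mouse 4, against 42.6 to 47.7 in the others.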

How the results depend on the processing

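The members called depended on the setting. Txnrd1 was not called without the replicate block, where 0 members were higher and 0 lower. The other settings that used all mice each called 2 higher (DESeq2 size factors in edgeR, library totals alone, no filter, the stricter filter, the DESeq2 Wald test, limma voom and thinned counts), and 0 to 3 were called higher on leaving out a mouse. Lower calls were 1 without a filter (Gpx3) and 2 with the DESeq2 Wald test (Txn1 and Sod3), and 0 in the other settings. Over all genes 767 were called, 218 without the replicate block, 1816 with the DESeq2 Wald test and 166 to 555 without a mouse. With library totals alone the median of all genes was −0.06 and 407 of 756 calls were higher, against 519 of 767. Of the other NRF2 and glutathione genes 0 were higher without the replicate block and 6 with the DESeq2 Wald test, and 1 to 5 without a mouse. Lower ones numbered 1 with library totals alone, without a filter and with limma voom, and 3 with the DESeq2 Wald test. Of the reactive oxygen genes 0 were higher without the replicate block, 2 with the DESeq2 Wald test and 0 without any mouse. None was lower without the replicate block (0), with DESeq2 size factors (0) or without any mouse (0). The sign turned for Nqo1 (0.95) and Sod2 (0.25) without mouse 4, for Mgst1 without mouse 1, 3 or 4 (0.03, 0.02 and 0.03) and for Msrb1 without mouse 2 (0.00). On leaving out a mouse these genes ranged from −1.63 to 0.95 (without mouse 2 Nqo1 did not pass the filter), −0.20 to 0.25, −0.15 to 0.03 and 0.00 to 0.25. The compartment sums moved by less than 1 SD throughout, with mean log2 ratios of −0.08 to 0.03 for cytosolic and −0.37 to −0.17 for mitochondrial genes on leaving out a mouse. The cause of these changes was not tested. With 4 pairs, differences below 1.5-fold, as most were here, are mostly beyond what the test can call.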

Other observations

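The other marker lists summed to less than the macrophage list in every library. Endothelial genes summed to 13.2 to 36.7 CPM in mtD2+ and 18.0 to 23.6 CPM in mtD2-, mesothelial genes to 8.5 to 27.9 CPM in mtD2+ and 10.4 to 33.8 CPM in mtD2-, and lymphocyte genes to 26.0 to 49.8 CPM in mtD2+ and 41.6 to 63.7 CPM in mtD2-. Neutrophil genes summed to 198 to 265 CPM in mtD2+ and 216 to 255 CPM in mtD2-, with Ly6g at 0 counts in all 8 libraries and S100a8 averaging 2.78 ± 5.13 CPM in mtD2+ and 0.764 ± 1.37 CPM in mtD2- (SD, n = 4 each). Dendritic cell genes summed to 250 to 287 CPM in mtD2+ and 171 to 266 CPM in mtD2-.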
